A study of Mus musculus with 2 samples.

Results

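Insulin-like growth factor (IGF) genes were followed across the cell types of the mouse temporomandibular joint (TMJ), the joint between the jaw and the skull. The set held 10 genes picked by symbol out of 32285 listed genes, namely the 2 ligands Igf1 and Igf2, the 2 receptors Igf1r and Igf2r, and the 6 binding proteins Igfbp2, Igfbp3, Igfbp4, Igfbp5, Igfbp6 and Igfbp7. All 10 had molecules in both libraries.

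IGF1 and IGF2 are secreted growth factors that signal through IGF1R, a receptor tyrosine kinase, whereas IGF2R binds IGF2 at the cell surface and carries it to lysosomes. The IGF binding proteins are secreted carriers that hold the ligands outside the cell and set how much of them can reach a receptor, and proteases such as pappalysin A cut some of them and free the ligand. In joints IGF1 is known as a factor that makes chondrocytes build cartilage matrix.

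Both groups were wild-type C57BL/6 mice per the labels (C57BL/6J in the methods), female per the methods, injected in both joints with 10 µL of either phosphate-buffered saline (PBS) or complete Freund's adjuvant (CFA, 5 mg/mL, killed mycobacteria in oil, which inflames the joint). The labels give an age of 8 to 10 weeks without saying at which time, and the methods give injection at 8 weeks and tissue 3 weeks later. Condyle, disc, temporal bone, muscle and ligament of 3 mice per group, per the methods, were digested together and CD45-positive immune cells were depleted with beads. Each condition was 1 library, so differences between PBS and CFA could not be set against a spread of replicates, and p-values were not given. The exact 95% intervals given below cover counting error only.

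After the limits on genes (at least 500), mitochondrial UMIs (at most 10%) and hemoglobin UMIs (at most 1%), 2667 PBS cells with 27201994 UMIs and 4014 CFA cells with 44432717 UMIs were kept, where a UMI is 1 tagged RNA molecule. Median depth was 7022 UMIs per cell in PBS and 6509.5 in CFA. The hemoglobin limit removed 54.4% of the otherwise usable PBS barcodes and 7.79% of the CFA barcodes. The libraries shared 10 barcode sequences, 2 of them among kept cells. Cells fell into 37 clusters made without the IGF genes, of which 30 could be named from markers. Of the resulting classes, 10 had at least 50 cells in both libraries and were compared. The tenocyte-like class was mostly a cluster led by Mmp13, Gpx3 and Pdzrn4 (161 PBS and 102 CFA cells). A small cluster with the tendon genes Tnmd and Scx among its leading genes (24 and 10 cells) made the rest. The larger cluster was named by the marker rule, but neither Tnmd nor Scx was among its leading genes. Values of tenocyte-like cells below describe mainly that larger cluster, and whether its cells are tendon cells was not tested. Macrophage-like cells (20 in PBS, 325 in CFA) and Spp1 macrophage or osteoclast-like cells (0 in PBS, 261 in CFA) were described but not compared.

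Positions are given in GRCm38 with GENCODE M21 genes. Igfbp2 (chromosome 1, 72824503 to 72852474, plus strand) and Igfbp5 (chromosome 1, 72857932 to 72874884, minus strand) are neighbours, 5457 bases apart. Igfbp3 (chromosome 11, 7206086 to 7213923, minus strand) lies 3539 bases from Igfbp1, of which the compared classes held 1 UMI in PBS and none in CFA. Igfbp4 is also on chromosome 11 (99041244 to 99054392, plus strand), Igfbp6 on chromosome 15 (102144362 to 102149511, plus strand) and Igfbp7 on chromosome 5 (77349240 to 77408041, minus strand). Igf2 (chromosome 7, 142650766 to 142666816, minus strand) lies 72622 bases from H19, a noncoding RNA gene that shares its imprinted domain. Igf1 is on chromosome 10 (87858265 to 87937042, plus strand), Igf1r on chromosome 7 (67952827 to 68233668, plus strand) and Igf2r on chromosome 17 (12682406 to 12769664, minus strand).

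Levels are UMIs of a gene per 1000000 UMIs of a class (counts per 1000000, CPM). Because the assay tags the 3′ end of each RNA, 1 molecule counts once whatever its length, and CPM was not divided by gene length. Of the compared classes, fibroblast-like cells had the highest levels of Igfbp4, Igfbp5 and Igfbp6 in both libraries, mural-like cells of Igfbp7, and endothelial-like cells of Igfbp3, while Igfbp2 was carried by few cells. Summed over the 6 genes, the level was 7022 CPM in PBS and 7603 CPM in CFA for fibroblast-like cells, 4788 and 5329 CPM for mural-like cells, 3556 and 3936 CPM for tenocyte-like cells, and 2798 and 2221 CPM for endothelial-like cells. The CFA to PBS ratio of this sum was 1.08 in fibroblast-like, 1.11 in mural-like, 1.11 in tenocyte-like and 0.794 in endothelial-like cells.

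**Figure D1:**
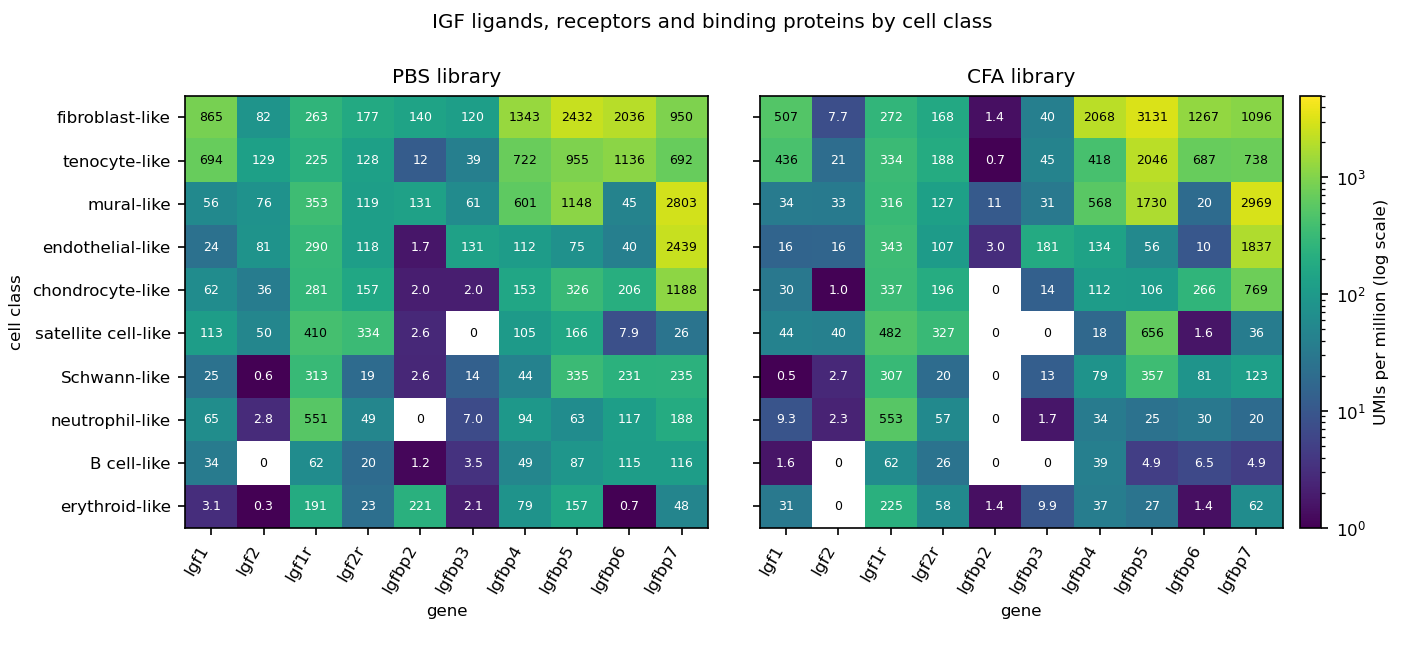
Heat maps of UMIs per 1000000 (colour, log scale, with the value printed in each field) for the 10 genes (columns) in the 10 compared cell classes (rows), PBS on the left and CFA on the right; white fields hold no UMI. Fibroblast-like cells are the brightest row for Igfbp4, Igfbp5 and Igfbp6, and the Igf2 and Igfbp2 columns are darker in CFA.

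A gene counted as past 2-fold in a class if it had at least 10 UMIs in one library and its CPM differed at least 2-fold. Of 100 pairs of a gene and a class, 85 had enough UMIs. Among them 5 were at least 2-fold higher in CFA, 29 at least 2-fold lower and 51 in between. The counts stand beside the share of all measured genes past the same fold. In fibroblast-like cells 3 of 10 were lower (6.08% of all genes) and 0 higher (10.3%). Tenocyte-like cells had 2 of 10 lower (9.33%) and 1 higher (4.30%), and mural-like cells 3 of 10 lower (6.10%) and 0 higher (5.26%). Endothelial-like cells had 2 of 10 lower (7.90%) and 0 higher (6.11%). In chondrocyte-like cells 3 of 9 were lower (7.92%) and 1 higher (7.98%), and in satellite cell-like cells 2 of 7 lower (7.74%) and 1 higher (11.9%). Schwann-like cells had 2 of 8 lower (4.04%) and 0 higher (10.8%), neutrophil-like cells 5 of 7 lower (12.3%) and 0 higher (10.5%), and B cell-like cells 4 of 7 lower (8.37%) and 0 higher (4.32%). Erythroid-like cells had 3 of 7 lower (9.72%) and 2 higher (13.3%).

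RNA of genes that a cell type is not known to use can be free RNA or lie in mixed barcodes, which were not told apart. Its level in neutrophil-like cells differed between the libraries. Neutrophils are not known as a source of collagen, and neutrophil-like cells held 388 CPM of Col3a1 in PBS and 155 CPM in CFA. Their level of Igfbp7 was 188 CPM in PBS against 19.9 CPM in CFA, of Igfbp6 117 against 29.8 CPM, and of Igf1 64.7 against 9.28 CPM. A few cells carried most of these counts, since the 3 highest PBS cells held 83.6% of the Igfbp7 UMIs and 95.7% of the Igf1 UMIs of the class. In B cell-like cells, likewise, the 3 highest PBS cells held 98.0% of 98 Igfbp6 UMIs and 89.7% of 29 Igf1 UMIs. These values moved with the lower CFA levels counted above in neutrophil-like and B cell-like cells, and their part in them was not tested.

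**Figure D2:**
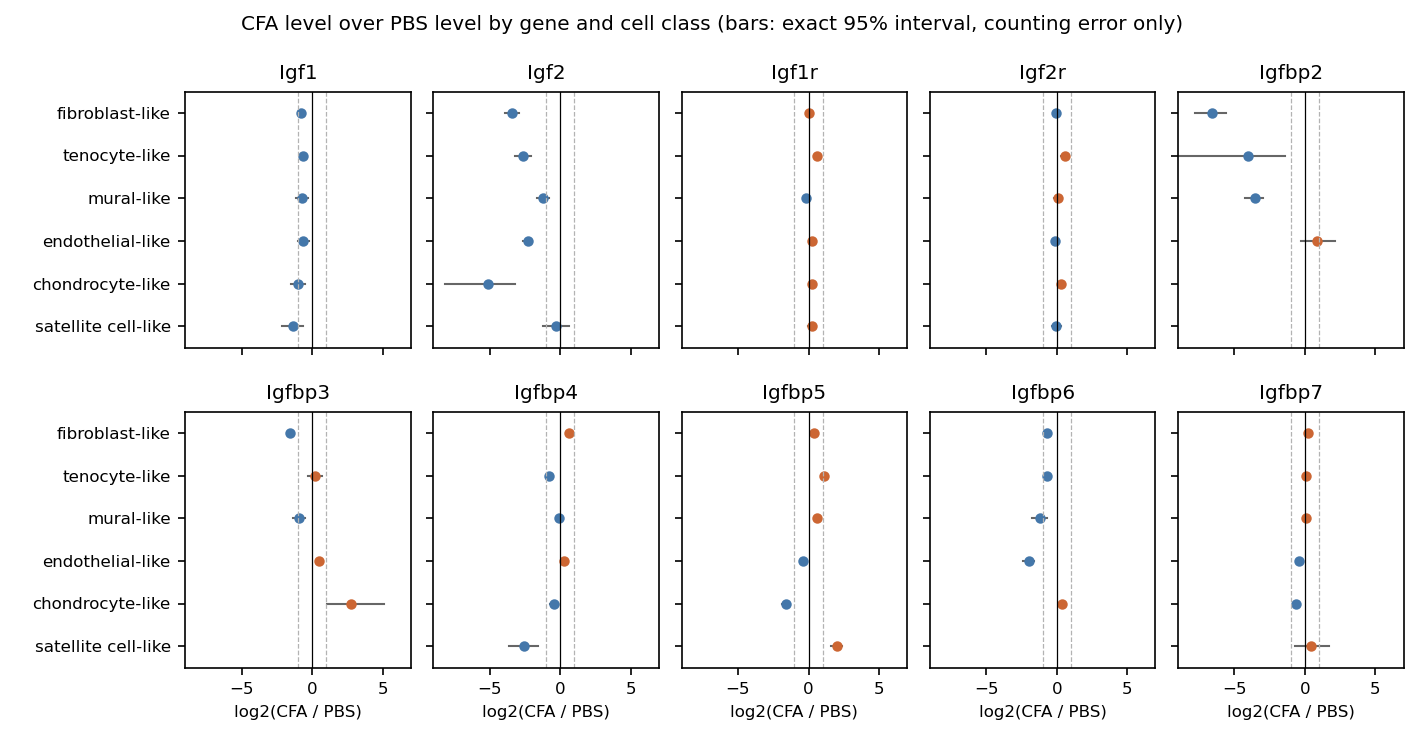
Log2 of the CFA level over the PBS level (x axis) for each gene in 6 cell classes (y axis); points are ratios, bars exact 95% intervals for counting error (that of Igfbp2 in tenocyte-like cells runs past the axis), blue points lie below 0 and orange points above, dashed lines mark 2-fold, and pairs with under 10 UMIs in both libraries are left out. In these classes Igf1r and Igf2r stay within 2-fold, Igf2 and Igfbp2 lie mostly left of the lower line, and Igfbp5 is spread to both sides.

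Igf1, the ligand that carries much of the action of growth hormone, lay mostly in fibroblast-like and tenocyte-like cells. Fibroblast-like cells held 865 CPM in PBS (840 to 891) and 507 CPM in CFA (489 to 527), and tenocyte-like cells 694 CPM in PBS (660 to 728) and 436 CPM in CFA (402 to 473). The intervals of the 2 classes did not overlap in either library, and among the compared classes in PBS the next, satellite cell-like cells, was 6.13-fold below tenocyte-like cells. In CFA tenocyte-like cells a single cell held 167 of the 589 UMIs and the 3 highest held 46.5%. The intervals, which cover counting error only, leave this out. Of all Igf1 UMIs, 61.6% in PBS and 57.8% in CFA came from fibroblast-like cells. The CFA to PBS ratio was 0.587 (0.559 to 0.615) in fibroblast-like and 0.629 (0.571 to 0.692) in tenocyte-like cells, within 2-fold in both. The Mmp13+ tenocyte-like cluster held 774 CPM in PBS and 479 CPM in CFA (0.619, 0.560 to 0.685). The small Tnmd+ cluster was nearly level, at 262 CPM in PBS and 260 CPM in CFA.

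The fibroblast clusters did not share 1 ratio for Igf1. Pi16+ adventitial fibroblasts had 521 CPM in PBS and 472 CPM in CFA, a ratio of 0.906 (0.835 to 0.984). In the Apod+ Gdf10+ sublining cluster the level was 928 CPM in PBS and 668 CPM in CFA, a ratio of 0.720 (0.662 to 0.784). Fibroblasts led by Angptl1 and Cilp had the highest PBS level, 1141 CPM, and 407 CPM in CFA, a ratio of 0.357 (0.320 to 0.396). Osteoblast or osteocyte-like cells, too few to be compared (35 in PBS, 28 in CFA), held 646 CPM of Igf1 in PBS and 179 CPM in CFA.

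In mural-like cells, at 56.4 CPM in PBS and 34.1 CPM in CFA, the clusters differed in direction, from 81 to 23 UMIs in Myh11+ cells (ratio 0.198, 0.119 to 0.318) and from 29 to 54 in Rgs5+ cells (2.48, 1.55 to 4.03). The 3 highest cells held 72.7% of the class's UMIs in PBS and 67.5% in CFA.

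The classes past 2-fold for Igf1 had low counts. Satellite cell-like cells, the stem cells of muscle, held 43 UMIs in 20 cells in PBS (113 CPM) and 27 UMIs in 5 cells in CFA (43.7 CPM), a ratio of 0.386 (0.229 to 0.639), with 88.9% of the CFA UMIs in 3 cells. Chondrocyte-like cells held 62.0 CPM in PBS and 30.3 CPM in CFA, a ratio of 0.489 (0.346 to 0.687), and without the 3 highest cells of each library it was 0.706. In Schwann-like cells 38 UMIs in 7 PBS cells stood against 1 UMI in CFA. Erythroid-like cells held 9 UMIs in PBS and 22 in CFA, where 3 cells held 77.3% of them.

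Igf1 UMIs were also found in macrophages. The 20 macrophage-like cells of PBS held 33 UMIs or 119 CPM (82.0 to 167), with a UMI in 40% of them. In CFA macrophage-like cells held 83.6 CPM (75.5 to 92.3) and Spp1 macrophage or osteoclast-like cells 61.1 CPM (56.1 to 66.5), and they made 8.03% and 11.2% of the Igf1 UMIs of that library. After thinning to 1000 UMIs, 6.23% of CFA macrophage-like cells (3.85 to 9.46) had an Igf1 UMI, against 20.9% unthinned. In the Spp1 class 3.83% (1.85 to 6.93) had one after thinning. Of the 20 PBS macrophage-like cells 0 had one, which allows a share of up to 15%. Endothelial-like cells of CFA, not known to make much Igf1, gave 1.45% thinned and 5.36% unthinned (median depth 12504 UMIs in macrophage-like and 4380 in endothelial-like cells). Their Plvap+ venular cluster gave 4.86% thinned (2.25 to 9.03) and 18.9% unthinned, and its thinned interval overlapped that of macrophage-like cells. Cx3cr1 marks macrophages that line the synovium. CFA macrophage-like cells with a Cx3cr1 UMI held 115 CPM of Igf1 (135 cells) and those without 55.6 CPM (190 cells), but a single cell held 136 of the 254 UMIs of the first group. Without the highest cell of each group the levels were 55.0 and 50.6 CPM, and the shares of cells with an Igf1 UMI were 20% and 21.6%. In the Spp1 class the levels were 92.4 CPM (113 cells) and 33.4 CPM (148 cells), or 73.5 and 30.2 CPM without the highest cell of each group, and the shares 26.5% and 21.6%. Cells with a Cx3cr1 UMI were the deeper ones, with a median of 13911 against 11477 UMIs in macrophage-like cells.

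Igf2, the ligand of fetal growth that is silenced on the maternal chromosome, was past 2-fold lower in CFA in 5 classes. Tenocyte-like cells held 303 UMIs or 129 CPM in PBS and 28 UMIs or 20.7 CPM in CFA, a ratio of 0.161 (0.105 to 0.238). Fibroblast-like cells held 82.1 and 7.74 CPM, a ratio of 0.0943 (0.0673 to 0.129), and endothelial-like cells 80.6 and 16.2 CPM, a ratio of 0.201 (0.162 to 0.247). Mural-like cells were at 76.4 and 33.2 CPM (0.435, 0.325 to 0.578). In chondrocyte-like cells 53 UMIs in PBS stood against 2 in CFA. Satellite cell-like cells held 49.99 CPM in PBS and 40.4 CPM in CFA, with a ratio of 0.809 (0.428 to 1.55), and had the highest CFA value, with an interval that overlapped that of mural-like cells.

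In fibroblast-like cells the 3 highest cells held 46.4% of the 433 Igf2 UMIs in PBS and 60.5% of 43 in CFA. In endothelial-like cells 231 of 751 PBS cells held a UMI (30.8%) and 55 of 1063 CFA cells (5.17%), and at 1000 UMIs the shares were 7.42% (5.64 to 9.55) and 1.35% (0.741 to 2.26). Neutrophil-like cells were at 2 UMIs in PBS and 7 in CFA, 2.81 and 2.32 CPM. Each of the 6 endothelial, 3 fibroblast and 2 mural clusters had a lower Igf2 level in CFA, though the interval reached past 1 in Rgs5+ mural cells (0.886, 0.389 to 1.94) and in Rbp7+ Fabp4+ endothelium (0.297, 0.0654 to 1.11). Arterial endothelium, which holds Sema3g and Gja5, had the highest Igf2 level of the endothelial clusters in both libraries, 171 CPM in PBS and 80.7 CPM in CFA, a ratio of 0.472 (0.364 to 0.609). In Gpihbp1+ Car4+ capillary endothelium the values were 65.5 and 2.71 CPM, a ratio of 0.0414 (0.00840 to 0.125), and in Plvap+ venular endothelium 47.2 and 1.09 CPM, a ratio of 0.0230 (0.00464 to 0.0701). Among barcodes over the hemoglobin limit, left out of all classes, 12.8% of 3178 in PBS and 0.590% of 339 in CFA had an Igf2 UMI.

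H19, the imprinted neighbour of Igf2 and a noncoding RNA, was past 2-fold lower in CFA in the same 5 classes and in Schwann-like and erythroid-like cells. Fibroblast-like cells held 204 CPM of H19 in PBS and 30.2 CPM in CFA, a ratio of 0.148 (0.125 to 0.175). Tenocyte-like cells held 219 and 51.1 CPM (0.233, 0.179 to 0.300). In endothelial-like cells the counts were 70 UMIs in PBS and 3 in CFA, and in chondrocyte-like cells 82 and 13. Igf2bp2, which encodes an RNA-binding protein named for its binding of Igf2 mRNA, was at 45.9 CPM in PBS and 21.6 CPM in CFA in fibroblast-like cells (0.471, 0.375 to 0.589) and at 31.4 and 8.15 CPM in tenocyte-like cells (0.259, 0.124 to 0.491). These ratios rest on the same 2 libraries as the Igf2 ratios.

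Among the compared classes, and over all kept cells, Igf1r and Igf2r differed least between the libraries. Over all kept cells Igf1r was at 275 CPM in PBS and 292 CPM in CFA, and Igf2r at 107 and 102 CPM. Igf1r, the signalling receptor, was found in every compared class, from 62.2 CPM in PBS and 61.8 CPM in CFA in B cell-like cells to 551 CPM in PBS and 553 CPM in CFA in neutrophil-like cells, the highest of them. In the CFA library the order of neutrophil-like and satellite cell-like cells (482 CPM) was not resolved, as their intervals overlapped. Its ratio lay between 0.894 in mural-like and 1.48 in tenocyte-like cells (1.31 to 1.69), and in fibroblast-like cells it was 1.03 (0.958 to 1.11).

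Igf2r, the lysosomal carrier, was highest in satellite cell-like cells, at 334 CPM in PBS (279 to 398) and 327 CPM in CFA (283 to 375), apart from the next class in both libraries. Of the compared classes Schwann-like cells had the lowest values, 19.5 CPM in PBS and 20.5 CPM in CFA, with intervals that overlapped those of B cell-like cells. The ratio was 0.947 (0.864 to 1.04) in fibroblast-like and 1.47 (1.24 to 1.75) in tenocyte-like cells. Of the compared classes only erythroid-like cells were past 2-fold, 2.55, in a class whose median depth was 18365 UMIs in PBS and 2218 in CFA. Macrophage-like cells, not compared, held 2 Igf2r UMIs in 20 PBS cells and 439 in 325 CFA cells, 7.22 and 93.6 CPM. In CFA they made 9.68% of the Igf2r UMIs, and Spp1 macrophage or osteoclast-like cells 17.9%. Airn, an RNA made from within Igf2r on the other strand, had the pattern over clusters most like that of Igf2r (Pearson r = 0.898 over 30 clusters), and whether the counting told the strands apart is not given in the sources used here.

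Igfbp2, a binding protein with a preference for IGF2, stood apart from the others by its small number of cells. In PBS 84 of 2667 cells held 1716 UMIs, of which 26 cells with 10 or more UMIs held 1591. In CFA 18 of 4014 cells held 57 UMIs, and 1 cell held 10 or more. Over all kept cells the level was 63.1 CPM in PBS and 1.28 CPM in CFA, a ratio of 0.0203 (0.0153 to 0.0265). Neutrophil-like cells held no Igfbp2 UMI in either library. Of the barcodes over the hemoglobin limit, left out of all classes, 144 of 3178 in PBS (4.53%) held 395 Igfbp2 UMIs. In CFA 0 of 339 held one.

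Part of the PBS Igfbp2 lay in cells with epithelial RNA. The 5 epithelial markers Krt5, Krt14, Epcam, Krt18 and Cdh1 summed to 118 CPM in PBS and 13.5 CPM in CFA over all kept cells, and Krt14, a keratin of basal epithelium, had 1718 UMIs in PBS and 23 in CFA. Cells with 10 or more UMIs of these markers numbered 19 in PBS and 8 in CFA. The erythroid-like class held 16 of the 19, with a median of 64448.5 UMIs each, and they carried 634 of the 643 Igfbp2 UMIs, 213 of the 230 Igfbp4 UMIs and 436 of the 456 Igfbp5 UMIs of that class in PBS. Without them the Igfbp2 level of PBS erythroid-like cells was 5.06 CPM in place of 221 CPM. The erythroid-like class held 4 of its 6 listed markers but also these cells, and its IGF ratios describe the mixture.

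No PBS fibroblast-like or mural-like cell had 10 UMIs of these markers, which summed to 14 and 3 UMIs over the 2 classes. Fibroblast-like cells had 741 UMIs in 18 of 468 PBS cells and 8 UMIs in 3 of 368 CFA cells, 140 and 1.44 CPM, a ratio of 0.0103 (0.00441 to 0.0203). A single cell held 508 of the 741, the 3 highest PBS cells held 81.9%, and without the 3 highest cells of each library the ratio was 0.0213. The share of cells with a UMI, which weighs each cell once, was 3.85% in PBS and 0.815% in CFA, and at 1000 UMIs it was 1.51% (0.609 to 3.08) and 0 of 359 cells, which allows a share of up to 0.836%. In mural-like cells 15 of 179 PBS cells held 255 UMIs and 8 of 222 CFA cells held 25, 131 and 11.1 CPM, a ratio of 0.0847 (0.0538 to 0.128). Nearly all of them, 254 in PBS and 23 in CFA, were in the cluster led by Actg2, Rgs5 and Cnn1, where the level was 323 CPM in PBS and 38.8 CPM in CFA. Tenocyte-like cells held 28 and 1 UMIs.

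**Figure D3:**
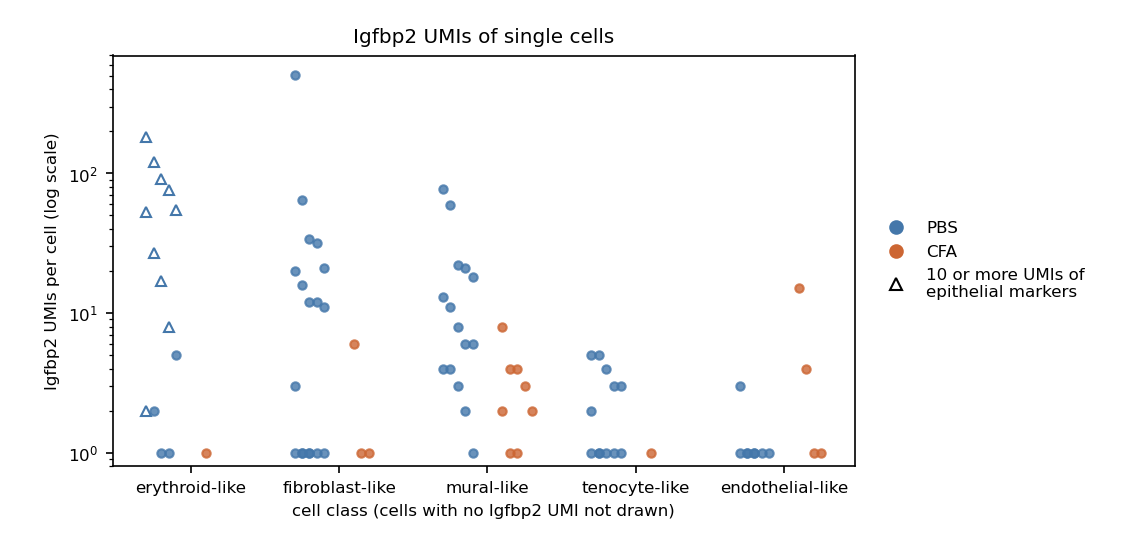
Igfbp2 UMIs of single cells (y axis, log scale) in 5 cell classes (x axis), PBS in blue and CFA in orange, with open triangles for cells with 10 or more UMIs of the 5 epithelial markers; cells with no Igfbp2 UMI are not drawn. The highest erythroid-like cells are triangles, and 1 fibroblast-like PBS cell stands above all others at 508 UMIs.

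Igfbp3, the main carrier of IGFs in blood plasma, was higher in CFA in endothelium and lower in fibroblasts. Endothelial-like cells held 131 CPM in PBS (122 to 140) and 181 CPM in CFA (171 to 191), a ratio of 1.38 (1.26 to 1.51). They made 36.5% of the Igfbp3 UMIs of the PBS library and 59.97% in CFA. Fibroblast-like cells held 120 CPM in PBS (111 to 130) and 40.1 CPM in CFA (35.0 to 45.8), a ratio of 0.334 (0.286 to 0.390). In PBS the intervals of the 2 classes overlapped, and in CFA endothelial-like cells stood 4.01-fold above the next class. The share of cells with an Igfbp3 UMI at 1000 UMIs was 10.3% (8.17 to 12.7) and 11.6% (9.71 to 13.7) in endothelial-like cells and 7.54% (5.31 to 10.3) and 4.18% (2.36 to 6.80) in fibroblast-like cells, and the intervals of the libraries overlapped in both classes. Neutrophil-like cells gave 0 of 62 and 0 of 324 cells, with median depths of 8355 and 4968 UMIs against 5445 and 4380 in endothelial-like cells.

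Within the endothelium the arterial cluster had the highest Igfbp3 level and nearly the same in both libraries, 366 CPM in PBS and 361 CPM in CFA (ratio 0.986, 0.857 to 1.14). It was higher in CFA in Plvap+ venular cells, with 118 and 205 CPM (1.73, 1.46 to 2.06), in a Car4+ Mcf2l+ cluster, with 65.3 and 121 CPM (1.86, 1.26 to 2.78), and in a Ccdc85a+ cluster, with 57.2 and 84.1 CPM (1.47, 1.04 to 2.07), whereas Gpihbp1+ Car4+ capillary cells were at 65.5 and 64.2 CPM (0.980, 0.712 to 1.34). All 3 fibroblast clusters were lower in CFA, from a ratio of 0.268 (0.201 to 0.354) in Pi16+ cells to 0.766 (0.534 to 1.09) in Apod+ cells. The highest level of any cluster was in an unnamed one led by Gpc5, Plppr1 and Dok6 that held the bone markers Runx2 and Sp7, at 846 CPM in 38 PBS cells and 261 CPM in 86 CFA cells. In chondrocyte-like cells the ratio of 6.65 came from 3 UMIs in 1 PBS cell and 26 UMIs in 1 CFA cell.

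Igfbp4, a binding protein cut by pappalysin A, was highest in fibroblast-like cells among the compared classes. They held 1343 CPM in PBS (1312 to 1375) and 2068 CPM in CFA (2030.1 to 2106), a ratio of 1.54 (1.49 to 1.59). The class made 52.0% of the Igfbp4 UMIs in PBS and 71.9% in CFA. The ratio was highest in Pi16+ adventitial fibroblasts. Every one of their cells had an Igfbp4 UMI in both libraries, and their level was 1566 CPM in PBS and 2618 CPM in CFA, a ratio of 1.67 (1.60 to 1.75). Apod+ cells were at 1650.3 and 1802 CPM (1.09, 1.03 to 1.15) and Angptl1+ cells at 887 and 671 CPM (0.757, 0.691 to 0.828). Pi16+ cells were 133 of 468 fibroblast-like cells in PBS and 161 of 368 in CFA, and with each cluster weighing the same the ratio of the class was 1.11.

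The other classes differed in direction for Igfbp4. Tenocyte-like cells held 722 CPM in PBS (688 to 757) and 418 CPM in CFA (385 to 454), a ratio of 0.580 (0.526 to 0.638). A single PBS cell held 667 of their 1701 UMIs and a single CFA cell 155 of 565, and without the 3 highest cells of each library the ratio was 0.602. Mural-like cells were at 601 and 568 CPM (0.945, 0.873 to 1.02). In satellite cell-like cells 40 UMIs in PBS stood against 11 in CFA, a ratio of 0.169 (0.0782 to 0.336), while at 1000 UMIs 3.57% and 3.45% of cells held one. Schwann-like cells held 44.2 CPM in PBS and 78.6 CPM in CFA, a ratio of 1.78 (1.33 to 2.41), with 20 UMIs in 3 PBS cells and 116 in 16 CFA cells of a cluster led by Fabp7. The other 3 Schwann clusters had lower CFA levels, but the intervals of all 3 reached past 1. Their ratios were 0.436 (0.173 to 1.02), 0.664 (0.251 to 1.68) and 0.774 (0.337 to 1.72). With these 3 clusters weighing the same, and without the Fabp7 cluster, the mean ratio was 0.608. Endothelial-like cells were at 112 and 134 CPM (1.20, 1.08 to 1.33), of which arterial cells held 162 and 299.69 CPM (1.85, 1.53 to 2.23) and Plvap+ cells 268 and 181 CPM (0.677, 0.592 to 0.773). Osteoblast or osteocyte-like cells held 2438 CPM in PBS, above fibroblast-like cells, and 445 CPM in CFA, in 35 and 28 cells.

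Igfbp5, a binding protein that also binds bone and other matrix, was the most abundant of the 6 in fibroblast-like cells, at 2432 CPM in PBS (2390.4 to 2475) and 3131 CPM in CFA (3085 to 3178), a ratio of 1.29 (1.26 to 1.32). It was higher in CFA in tenocyte-like cells, with 955.5 CPM in PBS (916 to 996) and 2046 CPM in CFA (1971 to 2124), a ratio of 2.14 (2.03 to 2.27), and the share of cells with a UMI at 1000 UMIs was 35.9% (28.9 to 43.3) and 53.6% (43.9 to 63.0). Neutrophil-like cells gave 4.84% and 1.85%, at median depths of 8355 and 4968 UMIs against 10311 and 9836 in tenocyte-like cells. Of the tenocyte-like Igfbp5 UMIs, 2248 of 2251 in PBS and 2763 of 2763 in CFA lay in the Mmp13+ cluster (ratio 2.25, 2.13 to 2.38). The values thus describe that cluster and not the small Tnmd+ cluster. With cells classed singly by their own markers the tenocyte ratio was 1.15. Mural-like cells held 1148 and 1729.75 CPM, a ratio of 1.51 (1.43 to 1.59).

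Satellite cell-like cells had the largest Igfbp5 ratio of the classes, 3.96 (3.03 to 5.25), from 63 UMIs in 13 of 56 PBS cells and 406 UMIs in 28 of 88 CFA cells, 166 and 656 CPM. It was 6.54 without the 3 highest cells of each library, and the shares at 1000 UMIs were 8.93% (2.96 to 19.6) and 21.8% (13.7 to 32.0), whose intervals overlapped. Chondrocyte-like cells went the other way, with 326 CPM in PBS and 106 CPM in CFA, a ratio of 0.325 (0.275 to 0.384). There 3 PBS cells held 74.9% of 479 UMIs, the share of cells with a UMI was 36.8% and 33.3%, and the ratio was 0.681 without the 3 highest cells. With cells classed singly the direction turned, with a ratio of 1.73. At a clustering resolution of 0.8 the ratio was 1.27, but there the class held 243 PBS and 196 CFA cells, against 57 and 84 here. No tenocyte-like class was left at that resolution, so the 1.27 is not a ratio of the same cells.

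Single clusters again differed. In fibroblasts the Igfbp5 ratio was 1.77 (1.69 to 1.86) in Angptl1+ cells, 1.14 (1.10 to 1.17) in Pi16+ cells and 0.744 (0.705 to 0.786) in Apod+ cells. Myh11+ mural cells, the smooth muscle of vessels, held 1119 CPM in PBS and 1915 CPM in CFA (1.71, 1.60 to 1.83), while the Rgs5+ cluster was at 1191 and 1209 CPM (1.01, 0.920 to 1.12). Endothelium was low in Igfbp5, yet the arterial cluster went from 13 UMIs in PBS to 93 in CFA, 12.3 and 79.9 CPM, a ratio of 6.47 (3.60 to 12.6), and Plvap+ cells from 163 to 75.1 CPM (0.462, 0.382 to 0.558). The highest levels of all were in clusters too small to be compared. Cells led by Prg4, the gene of the joint lubricant lubricin, held 6577 CPM in PBS (29 cells) and 5272 CPM in CFA (6 cells), and lymphatic-like cells 5106 CPM (18 cells) and 2593 CPM (12 cells).

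**Figure D4:**
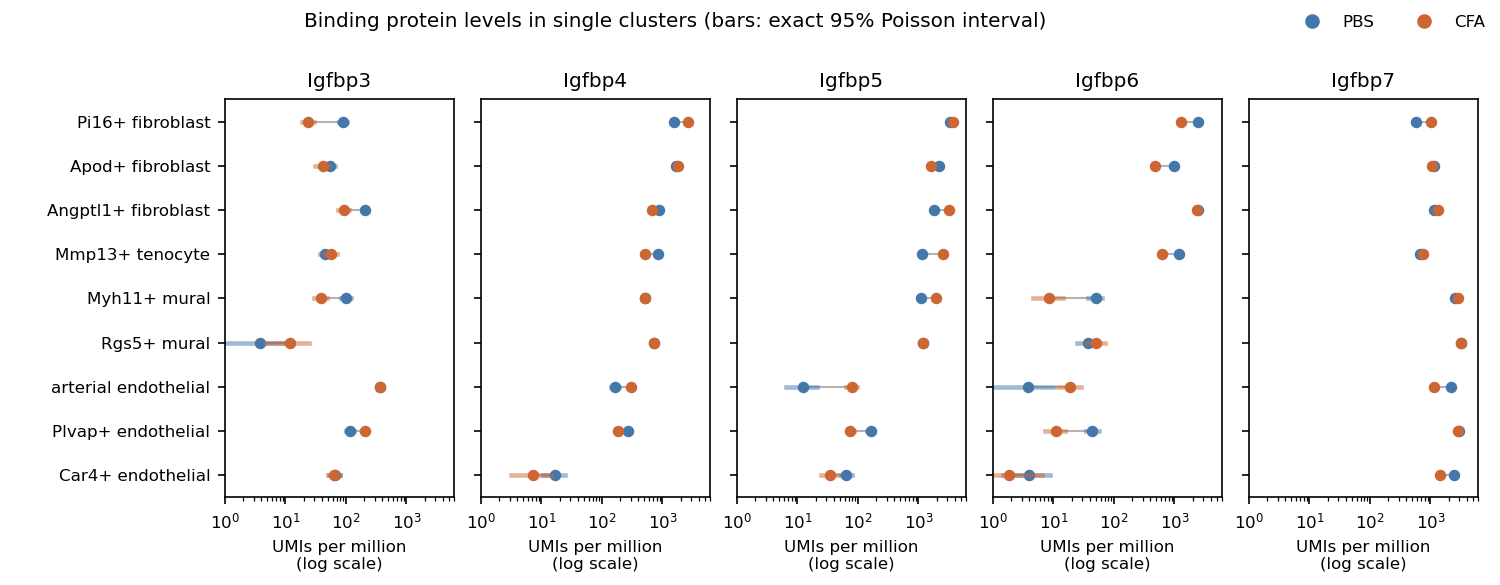
Levels of 5 binding proteins (UMIs per 1000000, log axis, values under 1 drawn at 1) in 9 clusters (y axis), PBS in blue and CFA in orange, with exact 95% Poisson intervals as bars. Igfbp7 is lower in CFA in arterial and Car4+ (Gpihbp1+) endothelium and nearly level in Plvap+ endothelium, and Igfbp6 is lower in Pi16+ and Apod+ fibroblasts and nearly level in Angptl1+ fibroblasts.

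Igfbp6, which prefers IGF2 over IGF1, lay mostly in fibroblast-like and tenocyte-like cells, and both classes had a lower level in CFA. Fibroblast-like cells held 2036 CPM in PBS (1997 to 2075) and 1267 CPM in CFA (1237 to 1296), a ratio of 0.622 (0.604 to 0.641), and made 67.3% and 74.9% of the Igfbp6 UMIs. Tenocyte-like cells held 1136 CPM in PBS (1093 to 1179.8) and 687 CPM in CFA (644 to 733), a ratio of 0.605 (0.561 to 0.652). Their Mmp13+ cluster was at 1169 and 624 CPM (0.534, 0.489 to 0.582). It held 2321 of the 2676 PBS UMIs and 677 of the 928 CFA UMIs, and the rest lay in the small Tnmd+ cluster. The share of tenocyte-like cells with an Igfbp6 UMI was not lower, 38.0% (31.0 to 45.5) in PBS and 43.8% (34.4 to 53.4) in CFA at 1000 UMIs. In neutrophil-like cells those shares were 3.23% and 1.54%.

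Among fibroblasts Igfbp6 was near its PBS level only in the Angptl1+ Cilp+ cluster, with 2447 CPM in PBS and 2321 CPM in CFA (0.949, 0.902 to 0.997). Pi16+ cells were at 2483 and 1265.5 CPM (0.510, 0.488 to 0.532) and Apod+ cells at 991 and 479 CPM (0.483, 0.440 to 0.530). Chondrocyte-like cells had more Igfbp6 in CFA, 206 CPM in PBS (183 to 230.3) and 266 CPM in CFA (243 to 290), a ratio of 1.29 (1.12 to 1.49). Schwann-like cells held 231 CPM in PBS and 80.8 CPM in CFA, a ratio of 0.350 (0.287 to 0.425), of which the 3 highest PBS cells carried 70.4%. The shares at 1000 UMIs were 7.0% (4.39 to 10.5) and 3.30% (1.71 to 5.69). Endothelial-like cells (40.1 and 10.3 CPM) and mural-like cells (44.6 and 19.5 CPM) were past 2-fold at low levels. Neutrophil-like cells in PBS held 117 CPM, but 3 cells held 91.6% of their 83 UMIs, so this value is not an even background. Without the 3 highest cells of each library the endothelial-like and mural-like ratios were 0.661 and 0.979. In PBS 159 of the 239 endothelial UMIs lay in the Rbp7+ Fabp4+ cluster of 43 cells.

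Igfbp7, a low-affinity member that is abundant around vessels, was the most abundant binding protein of the joint, with 30163 UMIs in PBS and 29544 in CFA. Mural-like cells held 2803 CPM in PBS (2729 to 2878) and 2969 CPM in CFA (2899 to 3041), a ratio of 1.06 (1.02 to 1.10). Endothelial-like cells held 2439 CPM in PBS (2399.9 to 2479) and 1837 CPM in CFA (1805 to 1869), a ratio of 0.753 (0.735 to 0.771). The share of endothelial-like cells with an Igfbp7 UMI at 1000 UMIs was 78.8% (75.7 to 81.7) in PBS and 59.4% (56.4 to 62.4) in CFA, against 4.84% and 0.617% in neutrophil-like cells. Intervals of the 2 libraries did not overlap on either scale.

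All 6 endothelial clusters were lower in CFA, and the ratio was nearest to 1 in venular cells. Plvap+ Selp+ venular cells were at 3023 CPM in PBS and 2867 CPM in CFA, a ratio of 0.949 (0.915 to 0.984). Gpihbp1+ Car4+ capillary cells were at 2445 and 1416 CPM (0.579, 0.546 to 0.615), arterial cells at 2180 and 1158 CPM (0.531, 0.496 to 0.568), the Car4+ Mcf2l+ cluster at 2129 and 1043 CPM (0.490, 0.447 to 0.537), the Rbp7+ Fabp4+ cluster at 2126.5 and 1085 CPM (0.510, 0.432 to 0.602), and the Ccdc85a+ cluster at 2093 and 957 CPM (0.457, 0.423 to 0.494). With each cluster weighing the same the ratio of the class was 0.567. Fibroblast-like cells held 950.2 CPM in PBS and 1096 CPM in CFA (1.15, 1.11 to 1.20), and within them Pi16+ cells 586 and 1035 CPM (1.77, 1.65 to 1.89). Chondrocyte-like cells were at 1188 and 768.5 CPM (0.647, 0.603 to 0.694).

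The make-up of the binding protein UMIs differed between the classes. Igfbp7 was 87.2% of the binding protein UMIs of endothelial-like cells in PBS and 82.7% in CFA, and Igfbp3 4.68% and 8.15%. In fibroblast-like cells Igfbp5 was 34.6% and 41.2%, Igfbp6 29.0% and 16.7%, and Igfbp4 19.1% and 27.2%. Tenocyte-like cells had Igfbp5 at 26.9% and 52.0%, Igfbp6 at 31.9% and 17.5%, and Igfbp4 at 20.3% and 10.6%, where the single PBS cell named above held 39.2% of the Igfbp4 UMIs. Chondrocyte-like cells were mostly Igfbp7, 63.3% and 60.7%. Satellite cell-like cells had 53.8% Igfbp5 of 117 UMIs in PBS and 92.3% of 440 UMIs in CFA.

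**Figure D5:**
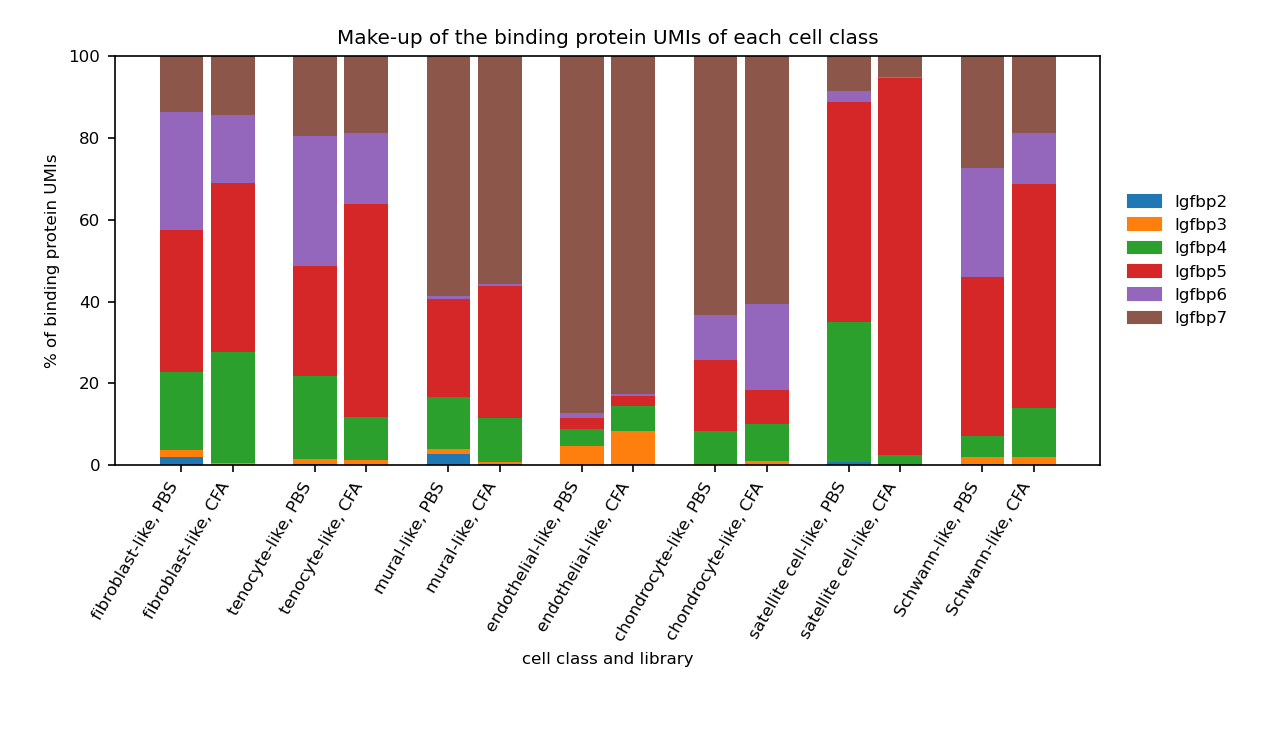
Stacked bars of the share of each binding protein (y axis, % of the UMIs of the 6 genes) in 7 cell classes, PBS and CFA side by side. Igfbp7 fills most of the endothelial-like bars, and the Igfbp5 part is larger and the Igfbp6 part smaller in CFA than in PBS in fibroblast-like and tenocyte-like cells.

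Most stromal cells held several binding proteins at once. With each cell thinned to 1000 UMIs, 74.4% of fibroblast-like cells in PBS (70.1 to 78.3) and 76.0% in CFA (71.3 to 80.4) had UMIs of at least 2 of the 6 genes. The same share was 62.6% and 58.4% in mural-like, 47.8% and 58.0% in tenocyte-like and 13.2% and 12.6% in endothelial-like cells. Neutrophil-like cells gave 4.84% in PBS and 0 of 324 in CFA, which allows up to 0.926%. Over 30 clusters of at least 50 cells, log2 levels of Igfbp4 and Igfbp5 were the most alike among the binding proteins (Pearson r = 0.821), followed by Igfbp3 and Igfbp7 (r = 0.753). Igfbp2 and Igfbp5, though neighbours on chromosome 1, had r = 0.483. The clusters share libraries and depth, and these values are a description.

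Among 10991 genes, those most like each binding protein over the same clusters were Bmpr1b (r = 0.731), Pappa2 (0.725) and Smim1 (0.716) for Igfbp2, and Fbln2 (0.861), Lrch2 (0.860) and Fbxl7 (0.852) for Igfbp3. The Igfbp2 correlations, here and above, include the erythroid-like cluster. There 634 of the 643 PBS Igfbp2 UMIs lay in cells with epithelial markers. Adamts2 (0.880), Scara3 (0.873) and Prrx1 (0.868) were most like Igfbp4, and Serping1 (0.919), Nbl1 (0.915) and Sdc2 (0.915) most like Igfbp5. Igfbp6 was nearest to Thbs4 (0.926), Cilp (0.910) and Fbln7 (0.895), and Igfbp7 to Ldb2 (0.933), Tm4sf1 (0.924) and Tnks1bp1 (0.923).

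Other genes of the pathway formed a list of 22, from binding protein proteases to insulin receptor adaptors. Over the compared classes 141 of 220 pairs had enough UMIs, of which 18 were at least 2-fold higher in CFA, 31 at least 2-fold lower and 92 in between. Beside the share of all genes past the same fold, 2 of 19 were higher (10.3%) and 4 lower (6.08%) in fibroblast-like cells, and 3 of 16 higher (6.11%) and 2 lower (7.90%) in endothelial-like cells. Mural-like cells had 1 of 16 higher (5.26%) and 3 lower (6.10%), tenocyte-like cells 0 of 17 higher (4.30%) and 3 lower (9.33%), and chondrocyte-like cells 6 of 15 higher (7.98%) and 3 lower (7.92%). Schwann-like cells had 2 of 15 higher (10.8%) and 1 lower (4.04%), and satellite cell-like cells 1 of 11 higher (11.9%) and 1 lower (7.74%). Neutrophil-like cells had 1 of 11 higher (10.5%) and 6 lower (12.3%), and B cell-like cells 0 of 10 higher (4.32%) and 5 lower (8.37%). In erythroid-like cells 2 of 11 were higher (13.3%) and 3 lower (9.72%). Pappa2, a protease that cuts Igfbp3 and Igfbp5, was at 171 CPM in PBS and 39.4 CPM in CFA in mural-like cells, a ratio of 0.231 (0.181 to 0.293). Pappa, which cuts Igfbp4, was at 11 UMIs in PBS and 81 in CFA in Schwann-like cells, a ratio of 6.10 (3.24 to 12.7), and at 51 and 31 UMIs in chondrocyte-like cells (0.466, 0.289 to 0.743). Stc2, a stanniocalcin that blocks pappalysins, was at 36.8 CPM in PBS and 107 CPM in CFA in chondrocyte-like cells (2.90, 2.14 to 3.99).

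The pairs past 2-fold in endothelial-like cells were Insr, Klf15 and Grb14, higher in CFA, and Pappa2 and H19, lower. In chondrocyte-like cells Insr, Ghr, Foxo3, Pik3r1, Irs2 and Stc2 were higher and Pappa, H19 and Igf2bp2 lower. Insr, the insulin receptor, was at 176 CPM in PBS and 362 CPM in CFA in endothelial-like cells (2.06, 1.91 to 2.21) and at 36.1 and 77.9 CPM in chondrocyte-like cells (2.16, 1.57 to 3.01). In endothelial-like cells Klf15, a transcription factor induced by glucocorticoids, was at 5 UMIs in PBS and 63 in CFA, and Grb14, an adaptor that restrains the insulin receptor, at 40 and 98. Chondrocyte-like cells held 80.4 and 226 CPM of Ghr, the growth hormone receptor (2.82, 2.29 to 3.48), 84.5 and 210 CPM of Foxo3 (2.48, 2.02 to 3.06), 74.3 and 179 CPM of Pik3r1 (2.41, 1.94 to 3.02), and 12 and 99 UMIs of the adaptor Irs2. Grb14 was also past 2-fold in fibroblast-like cells, at 16.3 CPM in PBS and 35.6 CPM in CFA (2.19, 1.69 to 2.85), and Pik3r1 in Schwann-like cells, at 240.4 and 481 CPM (2.001, 1.77 to 2.26).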

How the data were processed

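Droplet 3′ single-cell RNA libraries of the digested joint were made for 1 PBS and 1 CFA sample. The authors aligned reads with Cell Ranger 7.0.1 to mm10 and deposited filtered UMI counts per gene and barcode, not normalized. The labels name collagenase type I with Dispase II and the methods name Collagenase P with Dispase II. Whether the counting used strand is not given in the sources used here.

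From the counts, barcodes with at least 500 genes, at most 10% mitochondrial UMIs and at most 1% hemoglobin UMIs were kept. As in the study's methods, libraries were normalized with SCTransform and integrated over 200 principal components (R 4.3.3, Seurat 5.3.0, sctransform 0.4.2), here on 3000 features without the IGF genes, and clustered at a resolution of 1.5. A cluster was named from at least 3 detected markers (in at least 25% of its cells and at least 2-fold over the other cells). The rule for names was changed once names under an earlier form of it were known, so that markers of a subtype count as markers of its class. The classes may differ from those of the study.

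Levels, exact Poisson and Clopper-Pearson 95% intervals and exact ratio intervals were computed with Python 3.11.15, numpy 2.4.6, scipy 1.17.1 and pandas 2.3.3, and drawn with matplotlib 3.10.9. The code was checked on simulated Poisson counts with known ratios. Those counts hold no clumping of UMIs in few cells, so the check does not cover it. The intervals cover counting error only. A count of 0 allows up to 3 counts. Pearson correlations over clusters used log2(CPM + 10) for genes with at least 500 UMIs. Doublets were kept, since the automatic threshold of Scrublet (scanpy 1.11.5) marked 21 PBS and 2 CFA cells; an alternative removed the highest 5% of scores.

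The text names all 10 genes, giving values for the class with the highest level and for classes past 2-fold, other pathway genes past 2-fold with at least 50 UMIs in one library, and the 3 genes most alike to each binding protein. Some clusters were named beyond this rule after their values had been seen. Members and lists were chosen with earlier results of these data known, and the epithelial limit of 10 UMIs and 4 alternatives (cluster means, without the 3 highest cells, without cells with epithelial markers, and Igf1 beside Cx3cr1 without the highest cell) were chosen after seeing the data.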

Additional observations from a re-analysis of the deposited data

Results flagged for a closer look

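Ratios of CFA to PBS that went past 2-fold in one class while the same gene went the other way past 2-fold in another class stood out for Igf1, Igfbp3 and Igfbp5. With 1 library per condition none of these differences between classes was tested.

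For Igf1 the ratio was 10.0 in erythroid-like cells (9 UMIs in PBS, 22 in CFA), against 0.0478 in B cell-like, 0.0218 in Schwann-like, 0.144 in neutrophil-like, 0.386 in satellite cell-like and 0.489 in chondrocyte-like cells. The erythroid-like ratio was 0.0618 with barcodes over the hemoglobin limit kept, and the neutrophil-like ratio 1.46 without the 3 highest cells of each library.

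For Igfbp3 it was 6.65 in chondrocyte-like cells, from 1 cell in each library, and 0.334 in fibroblast-like cells, where 117 PBS and 60 CFA cells held a UMI.

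For Igfbp5 it was 3.96 in satellite cell-like and 2.14 in tenocyte-like cells, against 0.325 in chondrocyte-like, 0.393 in neutrophil-like, 0.171 in erythroid-like and 0.0562 in B cell-like cells. In erythroid-like cells 95.6% of the PBS Igfbp5 UMIs lay in cells with 10 or more UMIs of epithelial markers, and without such cells the ratio was 2.18. The chondrocyte-like ratio was 1.27 at a clustering resolution of 0.8 and 1.73 with each cell classed on its own.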

How the results depend on the processing

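No paired analysis was possible because each condition has 1 library, and no replicate was left out for the same reason. Over all alternatives 796 values stayed within the counting interval (a count within 1.5-fold), 286 moved beyond it and 16 reversed, which counts only ratios past 2-fold that changed direction. The cause was not tested.

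The count of gene and class pairs at least 2-fold higher in CFA, 5, was 2 at a clustering resolution of 0.8, 2 with each cell classed on its own, 2 with barcodes over the hemoglobin limit kept, 9 at a fold of 1.5, 3 with at least 50 UMIs and 3 without the 3 highest cells. The count at least 2-fold lower, 29, was 18 after log-normalization without integration, 19 with each cell classed on its own, 18 with doublets removed and 12 with the level in neutrophil-like cells subtracted. These counts rest on unlike numbers of pairs, and the share of all genes past the fold is not given for these settings. Classes under 50 cells in a library were not evaluated. These were erythroid-like and tenocyte-like cells at a resolution of 0.8 (2 and 1 of the 5 higher pairs), both and chondrocyte-like cells after log-normalization, erythroid-like and satellite cell-like cells with own classes, and erythroid-like cells without doublets and at 1000 genes. Subtraction gave no ratio for neutrophil-like and B cell-like cells, which held 5 and 4 of the 29 lower pairs.

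The summed binding protein ratio in fibroblast-like cells, 1.08, was 1.17 after log-normalization, 1.12 with own classes, 1.10 at a mitochondrial limit of 5%, 1.13 with hemoglobin barcodes, 1.07 as a mean over cells, 1.13 without doublets, 1.14 with neutrophil levels subtracted, 0.9998 as a cluster mean and 1.05 without the 3 highest cells. In mural-like cells 1.11 became 1.16, 1.07, 1.18, 1.08, 1.20 and 1.21 under the first 4 of these, without doublets and with subtraction. In endothelial-like cells 0.794 became 0.813 at a resolution of 0.8, 0.813 with hemoglobin barcodes, 0.629 as a mean over cells, 0.906 with subtraction and 0.584 as a cluster mean. In Schwann-like cells 0.756 became 0.884 with own classes, 0.909 as a mean over cells and 0.892 without the 3 highest cells, and went past 1 without doublets (1.08) and with subtraction (1.38).

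Reversed ratios were those of Igfbp7 in B cell-like cells (2.30 after log-normalization) and of their sum (1.47 after log-normalization, 1.48 without doublets), Igfbp5 in chondrocyte-like cells (1.27 at a resolution of 0.8, 1.73 with own classes) and Igfbp6 in mural-like cells (2.49 at 5% mitochondrial, 1.22 without doublets). The chondrocyte-like class at a resolution of 0.8 was a larger one of 243 PBS and 196 CFA cells, with no tenocyte-like class left. In erythroid-like cells Igf1 (0.0618) and Igf2r (0.538) reversed with hemoglobin barcodes kept, Igfbp4 at 5% mitochondrial (1.21), as a mean over cells (1.13) and without epithelial cells (4.17), and Igfbp5 (2.18) and the sum (3.78) without epithelial cells. In neutrophil-like cells Igf1 (1.46) and Igfbp6 (1.31) reversed without the 3 highest cells.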
